A study of Homo sapiens with 2 samples.

Results

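Receptor tyrosine kinases are the cell surface receptors for most growth factors and for several cues that cells present to one another. The list examined here held 51 of their genes, chosen by name and covering receptors for EGF, insulin, PDGF, VEGF, FGF, neurotrophins, HGF, GAS6, angiopoietins, ephrins and collagen, with their closest relatives. All 51 genes were on the array, with 89 of its 58199 probes and among its 34757 gene symbols.

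A receptor of this class spans the membrane, binds its ligand outside the cell and carries a tyrosine kinase domain inside it. Ligand binding brings receptor chains together, they phosphorylate each other, and adaptor proteins dock on the phosphorylated tyrosines to start RAS/MAPK, PI3K/AKT and other cascades. In melanoma these receptors are known from KIT, from the MET and EGFR signalling seen in cells that tolerate kinase inhibitors, and from AXL, which is linked to a less differentiated cell state.

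A375 cells are a long-established line from a human melanoma. THOC2 is a subunit of the THO complex, which couples transcription to export of mRNA from the nucleus. Cells given an siRNA (a short double-stranded RNA that leads to degradation of the mRNA it matches) against THOC2 and cells given NC, a control siRNA, were harvested after 48 h, and total RNA of 1 sample of each was labelled with Cy3 and hybridized to 1 Agilent SurePrint G3 v3 array. No untransfected cells were compared, so both groups had received an siRNA.

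With 1 array per condition no difference had a replicate check and no test was possible. The differences below compare 2 RNA samples, not 2 conditions. Their error is given as a technical SD, the spread of the log2 difference seen in probes spotted several times on each array, which leaves out differences between cultures. It was 0.06 for probes with a mean log2 signal over 8, 0.11 from 6 to 8, 0.29 from 4 to 6 and 0.44 at 4 or below. These values are medians over 244, 36, 6 and 14 repeated probes, so those for dim probes are less certain. A log2 fold change here is the log2 signal of the THOC2 siRNA array minus that of the NC array, each after subtraction of its own 75th percentile. The siRNA array was dimmer by this percentile (6.83 against 7.14), so equal scaled levels appear as lower signals on it.

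The submitted descriptions and the source fields named opposite conditions for both samples, and the descriptions were followed. The 2 THOC2 probes were lower on the array described as THOC2 siRNA, with signals of 136 on NC and 40.9 on siRNA (log2 fold change -1.42) and of 67.3 and 35.1 (-0.63). Of 8 melanocyte and melanoma markers, 4 genes were well above background on NC, among them SOX10 (6196 on NC and 5196 on siRNA), the neural crest transcription factor, and MITF (274 and 215), the master regulator of melanocytes. S100B read 199 and 102 in the probe detected on both arrays (log2 fold change -0.66). Of the pigment genes, DCT was well above background on both arrays (18.0 and 24.4) and PMEL, TYR and TYRP1 on neither. MLANA was detected on siRNA alone by 1 of its 2 probes, at 2.94 on NC and 18.7 on siRNA (at least 1.58-fold higher before spot error). Markers of blood and endothelium had signals of 27.4 or less on NC and 37.4 or less on siRNA. The epithelial keratin KRT18 was bright in both probes (29881 and 31561, log2 fold change 0.39, and 6344 and 7052, 0.46). KRT14 read 83.9 and 104 (0.62), with its other probe detected on siRNA alone (11.9 and 26.9). EPCAM, CDH1 and KRT5 were below background on both arrays. The fibroblast marker DCN was 62.4 and 149 (1.56) in one probe. Its other probe, COL1A1 and LUM were below background on both arrays. Before scaling by the percentiles, the summed signal of the 5 epithelial markers was 36300 on NC and 38800 on siRNA. That of the 3 fibroblast markers was 75.2 and 159. The epithelial sum came mostly from KRT18. For the melanocyte and melanoma markers the sums were 6840 on NC and 5680 on siRNA, for blood 92.8 and 108, and for endothelium 86.7 and 68.5. As the siRNA array was dimmer, these unscaled sums understate a rise on it and overstate a fall. The part of these markers in the results was not tested.

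Of the 51 receptor genes, 31 gave a signal well above background on the NC array from at least 1 probe (60.8%), the scanner software's call that a spot exceeds its local background. Over all genes on the array with an Entrez identifier, 15140 of 25044 did so (60.5%), so the receptors were detected about as often as genes at large. On the THOC2 siRNA array 29 receptor genes were detected, and all 29 were among the 31. The 2 genes seen on NC alone were KIT and PTK7. By probe, 43 of 89 were well above background on NC (48.3%) and 41 on THOC2 siRNA (46.1%), against 42.3% and 39.4% of all probes.

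The other 20 genes had no probe well above background on either array. They were ALK, EPHA1, EPHA5, EPHA6, EPHA7, EPHA8, EPHA10, EPHB1, ERBB4, FGFR2, FLT3, FLT4, INSRR, MERTK, NTRK2, PDGFRA, RET, ROS1, TEK and TIE1. This group held both TIE receptors, which bind or modulate the response to angiopoietins on endothelium, and 6 of the 9 EphA receptors. It also held FLT3 of blood progenitors, FLT4 of lymphatic endothelium, and RET, ROS1 and ALK. Over all 45 receptor probes below background, no signal passed 13.0 on NC or 11.3 on siRNA, and 36 were under 5 on both arrays. The lowest signal called well above background was 14.7 on NC and 15.9 on siRNA. The call is made against local background, so the limit of a single probe can lie higher.

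**Figure D1:**
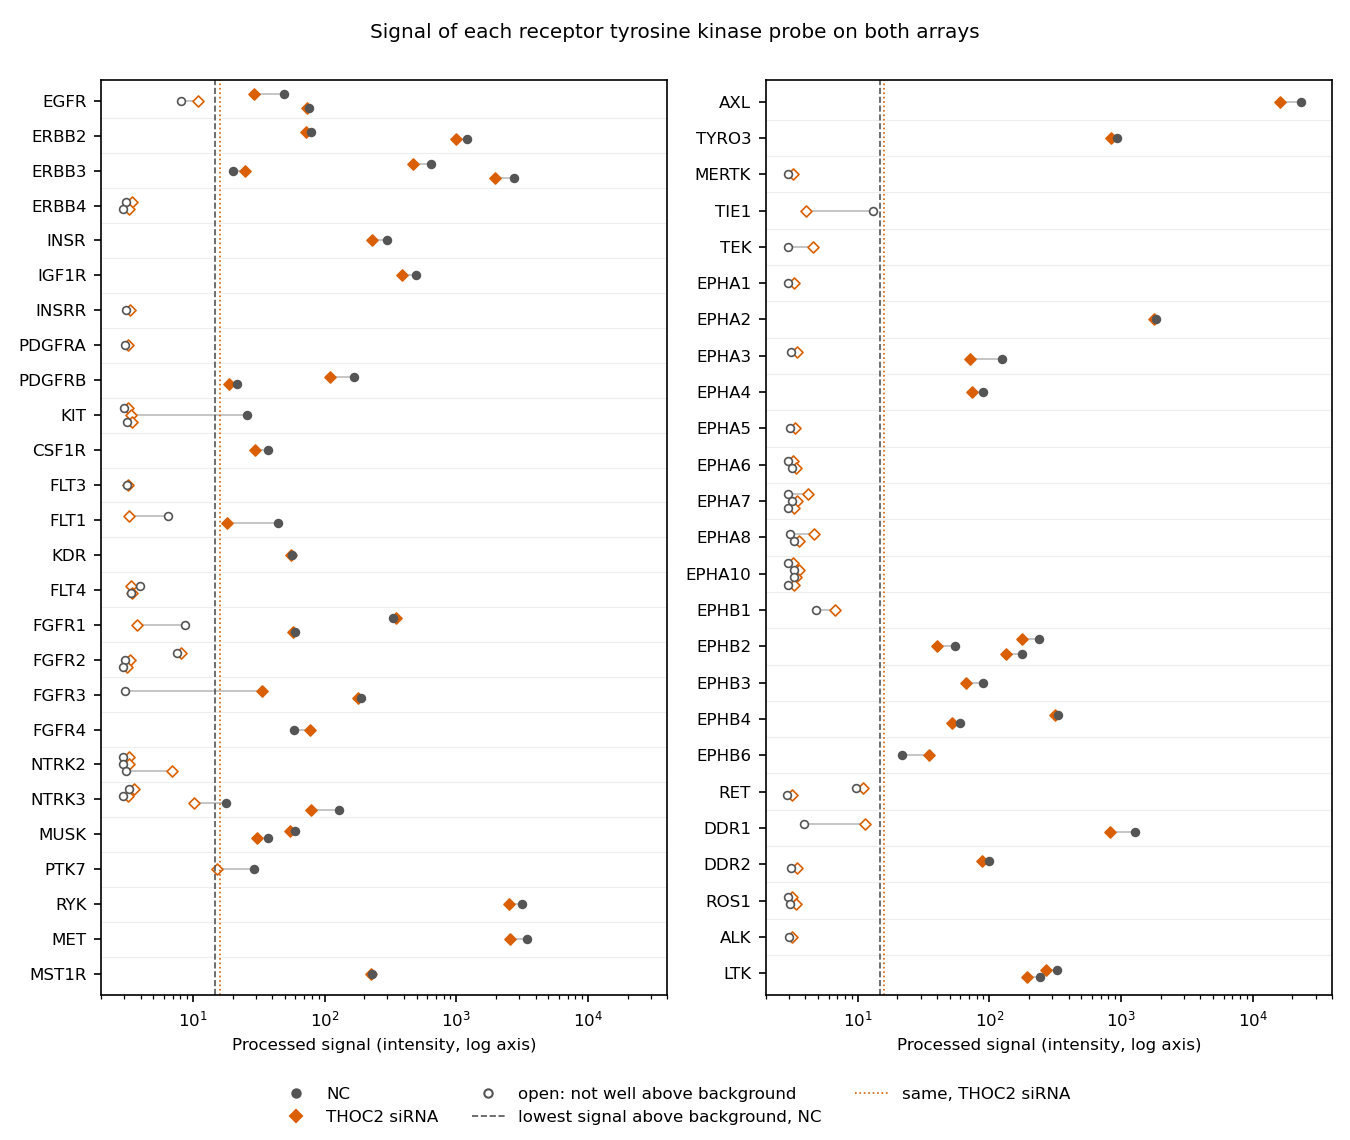
Processed signal of each of the 89 receptor probes on a log axis, with 1 circle for NC and 1 diamond for THOC2 siRNA joined by a line, filled where well above background. Vertical lines mark the lowest signal called well above background, 14.7 on NC and 15.9 on THOC2 siRNA, and most pairs of symbols lie close together. Signals of different probes are not on a common scale, so only the 2 symbols of a pair can be compared.

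The detected receptors covered most families. Among receptors for soluble growth factors, 3 of 4 EGF receptor family genes, 2 of 3 of the insulin receptor family, 3 of 5 of the PDGF and KIT family, 2 of 3 VEGF receptors, 3 of 4 FGF receptors and both of the MET family were detected on NC. Among receptors for ligands bound to cells or matrix, 3 of 9 EphA receptors, 4 of 5 EphB receptors and both collagen receptors DDR1 and DDR2 were detected. Of the TAM family, whose ligands include GAS6 and protein S, AXL and TYRO3 were detected and MERTK was not.

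Several receptors share a chromosomal neighbourhood, and detection differed within it. In band 4q12 the probes of PDGFRA, KIT and KDR lie 406 kb and 339 kb apart (hg19), and of these PDGFRA was not detected, KIT was detected on NC alone and KDR on both arrays. On chromosome 5 CSF1R and PDGFRB, 60.5 kb apart, were both detected, as were LTK and TYRO3 on chromosome 15, 71.5 kb apart. FLT1 was detected and FLT3, 298 kb away on chromosome 13, was not. EPHB2 was detected and EPHA8, 310 kb away on chromosome 1, was not.

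The promoters of detected and undetected receptors both tended to be rich in CG pairs. RefSeq promoter windows (GRCh38.p14, 250 bases before to 50 after the gene start) were found for 46 of the 51 genes, and the pair CG, which reads the same on both strands, was counted in each. The median was 26 CG pairs (range 0 to 55) over 29 receptors detected on NC and 21 (range 1 to 52) over 17 that were not. Over all genes with a window the medians were 25 in 10507 detected genes and 7 in 5392 undetected genes. Windows with 10 or more CG pairs made up 79.3% of detected and 76.5% of undetected receptors, against 84.2% and 42.3% of all detected and undetected genes. These counts were not tested. The counts describe letters in the window and say nothing of methylation, which was not measured.

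The 250 bases before the start of 4 receptors are shown because they give each combination of detection and CG content. AXL (4 CG pairs in these bases) and IGF1R (48) were detected on both arrays, and ROS1 (3) and FGFR2 (42) on neither. Capitals mark the CG pairs, and each sequence runs 5′ to 3′ toward the gene on GRCh38.p14.
AXL, chr19:41218973-41219222, plus strand: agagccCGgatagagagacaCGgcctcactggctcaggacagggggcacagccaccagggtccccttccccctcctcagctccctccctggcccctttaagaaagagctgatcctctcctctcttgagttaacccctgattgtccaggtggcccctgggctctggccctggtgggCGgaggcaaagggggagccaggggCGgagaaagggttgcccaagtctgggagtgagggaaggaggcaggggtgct
IGF1R, chr15:98648289-98648538, plus strand: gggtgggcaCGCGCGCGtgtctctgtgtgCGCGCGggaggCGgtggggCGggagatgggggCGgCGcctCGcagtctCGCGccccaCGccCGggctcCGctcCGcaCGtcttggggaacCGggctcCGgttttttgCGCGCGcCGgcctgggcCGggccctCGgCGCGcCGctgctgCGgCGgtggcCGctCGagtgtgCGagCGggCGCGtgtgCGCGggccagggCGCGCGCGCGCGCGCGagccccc
ROS1, chr6:117425943-117426192, minus strand: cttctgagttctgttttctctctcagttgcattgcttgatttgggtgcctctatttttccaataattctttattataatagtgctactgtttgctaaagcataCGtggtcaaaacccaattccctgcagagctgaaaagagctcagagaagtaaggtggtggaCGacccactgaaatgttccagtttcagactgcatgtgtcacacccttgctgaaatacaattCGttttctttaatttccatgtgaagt
FGFR2, chr10:121598445-121598694, minus strand: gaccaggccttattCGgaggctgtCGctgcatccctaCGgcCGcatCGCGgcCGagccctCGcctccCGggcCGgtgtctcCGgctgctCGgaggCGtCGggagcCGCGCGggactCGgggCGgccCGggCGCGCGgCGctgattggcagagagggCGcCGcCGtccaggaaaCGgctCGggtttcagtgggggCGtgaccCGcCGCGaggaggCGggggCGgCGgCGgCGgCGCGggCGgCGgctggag

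**Figure D2:**
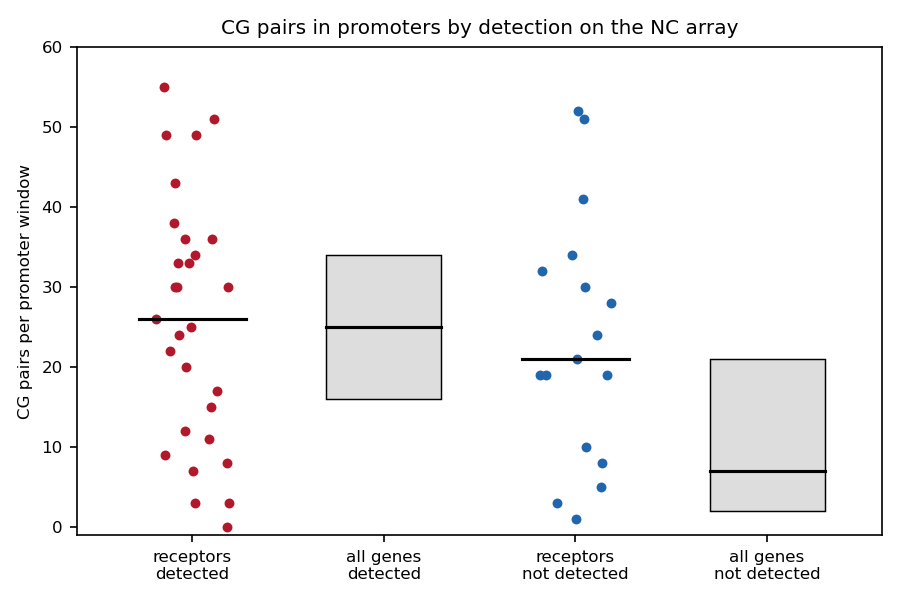
CG pairs in the 300-base promoter window, with 1 point per receptor and a bar at the median, for 29 receptors detected and 17 not detected on the NC array. Grey boxes give the range from the lower to the upper quartile of all genes with a bar at their median, which was 25 for detected and 7 for undetected genes, while the receptor medians were 26 and 21.

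Between the arrays few receptors differed by 2-fold. A probe was compared where it was well above background on at least 1 array, which held for 44 receptor probes. Of these 1 was 2-fold or more lower with THOC2 siRNA, a probe of KIT, and 1 was 2-fold or more higher, a probe of FGFR3, each 2.27% of the compared receptor probes. Of all 25345 compared probes, 3.33% were called lower and 2.94% higher, so the receptors were called at about the rate of the array. The remaining 42 receptor probes were not called. Of the 40 receptor probes well above background on both arrays none was called in either direction, against 0.365% lower and 0.833% higher of all 22207 such probes. No p-value exists beside these counts, since there was 1 array per condition.

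The receptor probes as a group were centred close to the rest. The median log2 fold change of the 44 compared probes was 0.01 (0.03 over all compared probes), with 22 below 0 and 22 above. On both arrays the 40 probes ranged from -0.98 to 0.99 with a median of 0.04 (0.045 over all such probes) and an SD across probes of 0.34 (0.32). A difference of 0.5 or more in size was seen in 4 of the 40 (against 9.98% of all such probes). In 19 of the 40 the difference passed 2 technical SDs (47.5%, against 40.9% of all), which says that 2 arrays differ by more than repeated spots do and not that the conditions differ. The median size of the difference was 0.15 in the 14 brightest receptor probes (mean log2 signal over 8), 0.21 in the 14 from 6 to 8 and 0.22 in the 12 from 4 to 6, against 0.14, 0.18 and 0.26 over all probes. No receptor probe in the brightest band differed by more than 0.39.

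**Figure D3:**
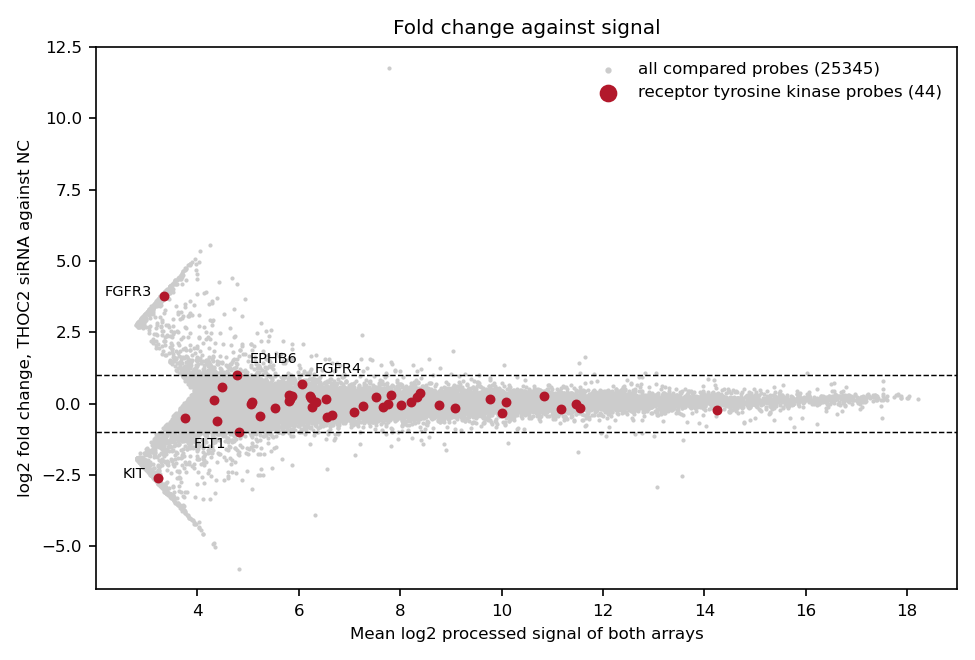
Log2 fold change (THOC2 siRNA against NC) against mean log2 processed signal for all 25345 compared probes in grey and the 44 receptor probes in red, with dashed lines at 2-fold. Receptor probes with a difference of about 0.7 or more are named, and these lie toward the dim end, where the grey points also spread most.

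KIT, the stem cell factor receptor that melanocytes need to develop, and FGFR3, a receptor for fibroblast growth factors, were the receptors called. In both cases the call came from 1 probe that was well above background on 1 array only, while the other probes of the same gene were not called or not detected. The first 30 of 60 bases of each probe are shown, since probes of the same gene differed in call or detection. Why they differed was not tested. No base is marked, positions are hg19, and whether a probe lies in coding sequence or a UTR was not determined here.
KIT, chr4:55593626-55593685, called lower: tggaaacaattatgtttacatagacccaac
KIT, chr4:55606511-55606570, not detected: aaagtggttgttagttatagatgtctaggt
KIT, chr4:55569965-55570024, not detected: agttcagcgagagttaatgattctggagtg
FGFR3, chr4:1809054-1809113, called higher: cactccccggcatgagactcagtgcagatg
FGFR3, chr4:1810363-1810422, not called: tgctacctttcaaagcttggagggaagccg

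The called KIT probe had a signal of 25.6 on NC and 3.37 on THOC2 siRNA, where it was not well above background. Against the lowest signal called well above background on the siRNA array it was at least 1.30-fold lower. That bound leaves out spot error, and as a log2 fold change (-0.38) it is smaller in size than the technical SD of 0.44. The measured log2 fold change of -2.61 rests on a signal below background. The other KIT probes read 3.01 and 3.14 on NC and 3.23 and 3.44 on siRNA, below background on both arrays. So 1 of 3 KIT probes gave a level, on 1 array. To see whether calls clustered by position on the slide, each array was divided into 128 blocks of neighbouring spots. In the block of this KIT probe 6.05% of compared probes were called lower, in a range over blocks of 0 to 12.6%, and the part of position in the call was not tested.

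The called FGFR3 probe had a signal of 3.03 on NC, not well above background, and 33.7 on THOC2 siRNA. It was at least 2.85-fold higher before spot error, against the lowest signal called well above background on NC. The measured log2 fold change was 3.78 (technical SD 0.44). The other FGFR3 probe, further along the gene, was well above background on both arrays with 189 and 180 (log2 fold change 0.24, technical SD 0.11). The 2 FGFR3 probes therefore disagree about the size of the difference, and the probe detected on both arrays was not called. The called probe lay in the block with the highest share of higher calls on the array, 19.9%, and the other in a block with 17.5%, and the part of position in these values was not tested.

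**Figure D4:**
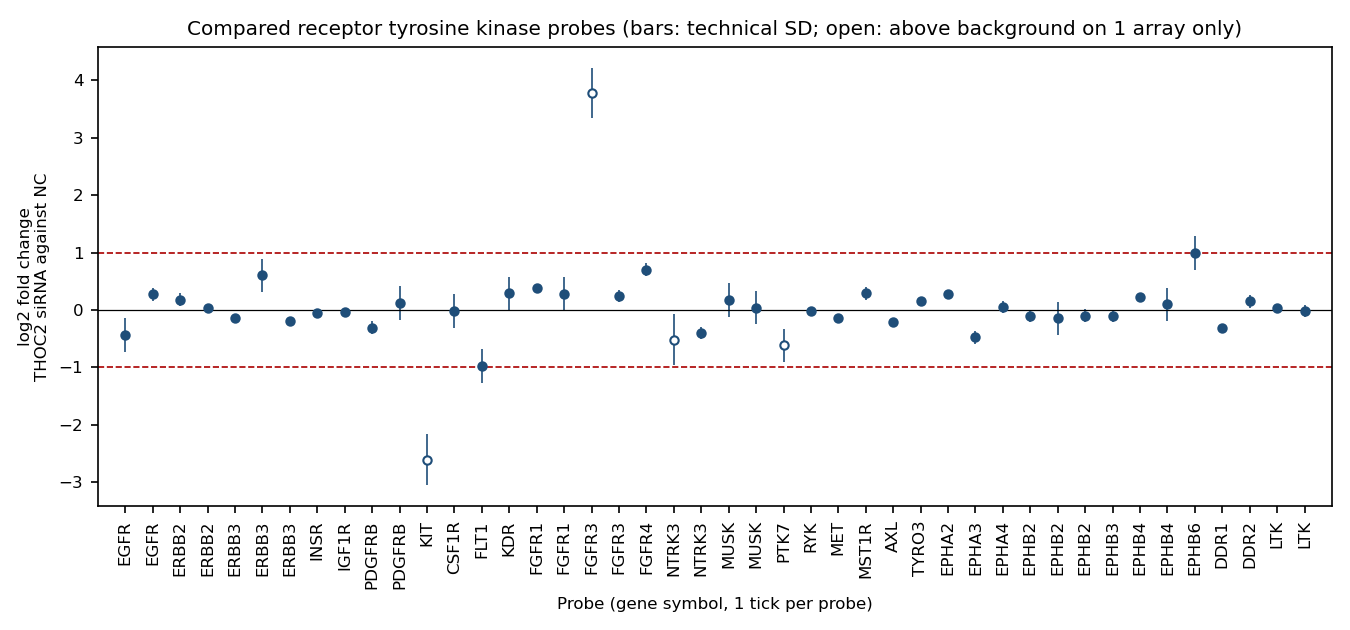
Log2 fold change (THOC2 siRNA against NC) of the 44 compared receptor probes, labelled by gene, with bars of 1 technical SD, dashed lines at 2-fold, and open circles for probes above background on 1 array only. Both points outside the lines, FGFR3 at 3.78 and KIT at -2.61, are open, and FLT1 at -0.98 and EPHB6 at 0.99 lie just inside.

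Just inside the 2-fold line on both arrays were FLT1 and EPHB6. FLT1 encodes a VEGF receptor that also exists as a soluble form that traps VEGF, and EPHB6 encodes an Eph receptor whose kinase domain is inactive. Neither was called, and neither has a second detected probe. The first 30 of 60 bases of their probes are shown, because the FLT1 probes are annotated to different transcripts (hg19, no base marked).
FLT1, chr13:28979927-28979986, annotated to a transcript variant: tgacagcaacatgggaaacagaattgagag
FLT1, chr13:28876389-28876448, annotated to the main transcript: ccagagttaggttgtctccaggccatgatg
EPHB6, chr7:142568377-142568436: caggacaacttctccaagtttggcctctgt

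The first FLT1 probe read 44.0 on NC and 18.1 on THOC2 siRNA, a log2 fold change of -0.98 (technical SD 0.29). The FLT1 probe annotated to the main transcript read 6.45 and 3.26, below background on both arrays, so the lower value concerns the stretch in that variant. EPHB6 read 21.6 on NC and 34.7 on siRNA, a log2 fold change of 0.99 (technical SD 0.29). KDR, the main signalling receptor for VEGF, read 56.0 and 55.3 (0.29), so the 2 detected VEGF receptors lay on opposite sides of 0, with no test of that difference.

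Within the EGF receptor family, EGFR, which binds EGF and related ligands, read 75.7 on NC and 73.7 on siRNA with its probe to the main transcript (log2 fold change 0.27). A second EGFR probe, annotated to another transcript, read 48.8 and 28.9 (-0.44), and the remaining EGFR probe was below background (8.07 and 11.0). ERBB2, which has no known ligand and pairs with other members, was measured by a probe with 9 usable spots on NC and 10 on siRNA, and so gives a direct view of spot error. Its spots had a lowest signal of 1132, a median of 1201 and a highest of 1249 on NC, and 902, 996 and 1049 on siRNA. The spots of the 2 arrays did not overlap in signal, while after scaling by the percentiles the log2 fold change was 0.04. The CV over spots was 3.07% and 4.78%. The other ERBB2 probe read 78.8 and 72.2 (0.18).

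ERBB3, the neuregulin receptor with a weak kinase that is common in the melanocyte lineage, had 3 probes above background on both arrays. They read 2759 and 1952 (log2 fold change -0.19), 638 and 466 (-0.14), and 20.2 and 24.8 (0.60, technical SD 0.29). The bright probes were slightly lower and the dim probe higher, so the ERBB3 probes do not give a common direction. The fourth family member, ERBB4, was not detected.

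INSR, the insulin receptor, and IGF1R, the receptor for insulin-like growth factors, hardly moved. INSR read 295 on NC and 228 on siRNA (log2 fold change -0.06), and IGF1R 490 and 384 (-0.04). Both differences were at or under the technical SD of 0.06. In the PDGF and KIT family, PDGFRB, a receptor for PDGF known from pericytes and fibroblasts, read 168 and 109 (-0.31, technical SD 0.11) with one probe and 21.5 and 18.8 (0.12, technical SD 0.29) with another. CSF1R, the receptor of macrophage colony-stimulating factor, read 37.4 and 29.6 (-0.02).

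The 4 FGF receptor probes detected on both arrays all had values above 0, from 0.24 to 0.70 with a median of 0.34. With each block of spots centred on its own median they ranged from 0.02 (FGFR3) to 0.52 (FGFR4). FGFR4 was 58.6 on NC and 77.0 on siRNA (log2 fold change 0.70, technical SD 0.11). FGFR1, the family member best known from mesenchymal cells, was 329 and 348 (0.39, technical SD 0.06) with one probe and 59.1 and 57.9 (0.28) with another, while the remaining probe was below background. FGFR2 was not detected. The FGFR4 probe lay in the same block as the called FGFR3 probe, where the median log2 fold change of all compared probes was 0.19, and that median was 0.22 in the block of the FGFR3 probe detected on both arrays.

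MET, the receptor for hepatocyte growth factor, read 3473 on NC and 2539 on siRNA (log2 fold change -0.14), and MST1R, the receptor of the related ligand MST1, read 228 and 225 (0.29). AXL read 23189 and 16034 (-0.22) and TYRO3 929 and 832 (0.15). MET and AXL, bright on both arrays, were thus a little lower after scaling and TYRO3 a little higher, each by more than 2 technical SDs and by far less than 2-fold.

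Among ephrin receptors, which signal at cell contacts, EPHA2 read 1843 on NC and 1786 on siRNA (log2 fold change 0.27), EPHA3 124 and 71.6 (-0.48) and EPHA4 89.1 and 74.1 (0.05). A second EPHA3 probe, annotated to another transcript, was below background. The 3 EPHB2 probes read 237 and 176 (-0.11), 54.6 and 39.7 (-0.15), and 178 and 134 (-0.10), so they agree within their technical SDs of 0.11 to 0.29. EPHB3 read 89.4 and 66.6 (-0.11). EPHB4, known from veins, read 331 and 314 (0.23) and 60.2 and 52.1 (0.10). Over the 7 EphB probes on both arrays the median was -0.10.

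The collagen receptor DDR1 read 1282 on NC and 830 on siRNA (log2 fold change -0.32, technical SD 0.06), and a second DDR1 probe was below background at 3.88 and 11.3. DDR2, which binds fibrillar collagen, read 98.5 and 88.3 (0.15), with a second probe below background. NTRK3, the neurotrophin-3 receptor, read 129 and 78.8 (-0.40, technical SD 0.11) with one probe. Another NTRK3 probe read 17.9 on NC and 10.1 on siRNA, detected on NC alone and too close to the detection limit to give a bound, and 2 more were below background. These 4 probes are annotated to different NTRK3 transcripts, so they need not measure the same RNA.

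PTK7, a kinase-inactive receptor of planar cell polarity, was detected on NC alone. Its single probe read 28.8 on NC and 15.1 on siRNA, at least 1.46-fold lower before spot error (technical SD 0.29). RYK, a Wnt receptor with an inactive kinase domain, read 3167 and 2519 (log2 fold change -0.02). MUSK, known from the neuromuscular junction, read 59.8 and 54.2 (0.17) and 36.9 and 30.6 (0.04). LTK, the relative of ALK, read 326 and 271 (0.04) and 243 and 194 (-0.02). RYK, MUSK and LTK differed between arrays by less than their technical SD.

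Of the 26 receptors with more than 1 probe, 7 had every probe well above background on NC, 10 had none and 9 had some above and some below. Detection therefore depended on the probe in 9 of these genes, and a gene not detected here may still be expressed from a transcript its probes do not cover.

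The partners of these receptors were taken from lists of ligands, adaptors and effectors, inhibitors, and co-receptors. Of 58 ligand genes, 36 were detected on NC, and of their 49 compared probes 1 was called lower and 3 higher (median log2 fold change 0.03). Both AREG probes were higher, from 2283 to 3898 (1.08) and from 5625 to 9481 (1.06), each with a technical SD of 0.06, and AREG encodes amphiregulin, a ligand of EGFR. PDGFD, a ligand of PDGFRB, was 6.21 on NC, below background, and 56.5 on siRNA, at least 4.78-fold higher before spot error. MST1, the ligand of MST1R, was called lower in a probe with no RefSeq annotation, which read 65.5 and 23.8 (-1.15, technical SD 0.29). The brighter MST1 probe, annotated to a RefSeq transcript, read 136 and 73.6 (-0.58) and was not called. The remaining MST1 probes were below background on both arrays. The receptors of these ligands, EGFR, PDGFRB and MST1R, were not called. Bright ligand probes that were not called included those of AGRN (25451 and 21663), VEGFB (7111 and 5574) and MDK (2848 and 2001).

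Of 35 adaptor and effector genes 29 were detected on NC, and none of their 36 compared probes was called (median log2 fold change 0.05). The list did not hold PIK3CA, a catalytic subunit of PI3K, so this count does not cover it. The authors reported PIK3CA as lower by quantitative PCR in A375 cells given THOC2 siRNA. PIK3R2, a regulatory subunit of PI3K, read 7073 and 5967 (0.07), and the adaptor SHC1 read 4726 and 3864 (0.02). GRB10 read 5071 and 4875 (0.25), and the insulin receptor substrate IRS2 3675 and 3212 (0.12). Of 32 genes that inhibit or degrade receptors 30 were detected on NC, and 1 of 41 compared probes was called lower and none higher (median 0.05). That probe was of NEDD4, a ubiquitin ligase that acts on receptors and their partners, at 175 and 68.2 (-1.05, technical SD 0.11), in a block where 12.6% of compared probes were called lower. The feedback inhibitors ERRFI1 (19364 and 19047, log2 fold change 0.29) and SPRY2 (13162 and 9786, -0.12), the sorting protein HGS (50816 and 44716, 0.13) and the phosphatase PTPRF (3871 and 3410, 0.13) were not called.

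Of 16 co-receptor genes 13 were detected on NC, and 2 of 19 compared probes were called lower and none higher (median log2 fold change 0.02). KLB, the co-receptor of endocrine FGFs, read 44.7 on NC and 3.81 on siRNA in one probe, at least 2.27-fold lower before spot error. It was below background in the other. GFRA3, a co-receptor for RET, read 17.6 and 5.23, detected on NC alone and too dim for a bound. The syndecans SDC4 (20546 and 19284, 0.22) and SDC1 (3167 and 3071, 0.27), the hyaluronan receptor CD44 (9213 and 7261, -0.03) and the glypican GPC1 (2494 and 2592, 0.37) were not called. As for the receptors themselves, the counts of called probes in these lists are small, and 3.33% lower and 2.94% higher over all compared probes is the level to read them against.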

How the data were processed

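The authors deposited scanner output of 2 one-colour arrays made with Agilent Feature Extraction 10.7.1.1, with an intensity per spot (processed signal, background subtracted and detrended) and flags for outliers, saturation and signal well above background. They also deposited normalized log2 values with equal distributions on both arrays, which were used as an alternative, and a table of their own fold changes, which was not used. Both arrays were on 1 slide and in 1 scan.

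Control spots and outlier spots (147 on NC and 168 on THOC2 siRNA) were left out, and no spot was saturated. Each log2 signal was reduced by the array's 75th percentile and spots of a probe were averaged. A probe was well above background where most of its spots were flagged so, was compared where this held on at least 1 array, and was called at 2-fold. Where it held on 1 array, the bound sets the dim side at the higher of its own signal and the lowest signal called above background on that array. The bound takes no account of spot error, and the limit of a single probe can lie above that lowest signal. The true difference can therefore be smaller than the bound. The methods' Student's test could not be run on 1 array per condition. Precision is limited by this number of arrays.

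Members were matched by the deposited gene symbol. The members and the lists of partners and markers were chosen with earlier results of these data known. All receptors were named. Receptors with a probe called or differing by 0.5 or more, or detected on both arrays, got values, and for partner genes those called and up to 4 of the brightest. Probe positions are those of the deposited annotation. Calls were tested on simulated data with known folds, but only for probes well above background on both arrays. The called KIT and FGFR3 probes were not of this kind, so the simulation says nothing about those calls.

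Alternatives were quantile normalization, scaling on the median, lowess centring (span 0.3), normexp background correction (offset 50), other detection filters, the authors' normalized values, a fold of 3 and dim signals placed at the detection limit. Centring of each block of spots was added after the data were seen. The tools were Python 3.11.15 (numpy 2.4.6, pandas 2.3.3, statsmodels 0.14.6) and, for normexp, limma 3.58.1 in R 4.3.3.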

Additional observations from a re-analysis of the deposited data

How the results depend on the processing

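The receptor count of 1 lower and 1 higher was the same under quantile normalization, median scaling, the authors' normalized values, a fold of 3 and block centring, the last chosen after seeing the data. With normexp background correction no receptor was called (0 lower and 0 higher), with FGFR3 at 0.95, KIT at -0.39 and PTK7 at -0.05. The median log2 fold change of the THOC2 probes went from -1.03 to -0.49. This correction left 0.126% of all compared probes lower and 0.367% higher. With probes above background on both arrays only, 0 were lower and 0 higher, since both called probes are then not compared. With dim signals set at their limit 0 were lower, as KIT came to -0.38, and FGFR3 stayed called at 1.51. Lowess centring gave 2 higher, adding EPHB6 at 1.01. Without a detection filter all 89 probes were compared, with 2 lower and 3 higher and a median of 0.359 (3.31% lower, 5.38% higher and a median of 0.307 over all probes), and the added calls (TIE1 lower, NTRK2 and DDR1 higher) came from probes below background on both arrays. Under the settings that kept the filter the median lay between -0.02 and 0.04. Requiring every probe of a gene to be above background left 22 receptors on each array. The 1 array per condition allowed no replicate to be left out, and no paired analysis was possible because each condition had 1 sample. Dim probes limit what can be read, since 45 of the 89 were below background on both arrays.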
